A study of Mus musculus with 35 samples.

Results

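MicroRNAs (miRNAs) of the white fat depot labelled eWAT were compared with those of the depot labelled cWAT, with 3 small RNA libraries from each. These are 6 of the 18 miRNA libraries and of the 35 samples in the study, and all 485 miRNAs of the deposited table were members of the comparison. The remaining miRNA libraries, 3 from each of iWAT, mWAT, aWAT and the brown depot iBAT, shared the estimate of error. Per the labels, the animals behind the miRNA libraries were 13 weeks old, of strain C57BL/6 (C57BL/6J males in the protocol), and the tissue was untreated whole fat. The protocol gives room temperature as the housing for the fat pads in general. It adds inguinal pads of mice kept at 4 °C for 1 week, and no label ties those pads to a depot name. The name eWAT is spelled out as epididymal white fat on other samples of the study, and cWAT is spelled out nowhere in the labels. If cWAT were the inguinal fat of the cold-housed mice, fat depot and housing temperature would differ together between the groups and cannot be told apart here. The labels do not say whether the libraries came from separate animals, so the p-values measure only the spread between these samples.

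A miRNA is a short RNA cut from a hairpin precursor, whose arms give a 5p and a 3p product. Loaded into an Argonaute protein, it pairs with messenger RNAs mainly through its seed, bases 2 to 8 from the 5′ end, and lowers their translation and stability. In fat, miRNAs act on adipocyte differentiation and on the balance between white and thermogenic cells, and a whole pad also holds vessels, nerves, immune cells and remnants of neighbouring tissue.

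Mature sequences are from RefSeq (GRCm38.p6), which matched 424 of the 485 miRNAs, 381 of the 436 tested and 76 of the 87 that differed. Those shown here are a selection of the miRNAs that differed, in either direction, and the capitals mark the seed. In the miR-34 and miR-449 group, the 5p arms shown share the seed GGCAGUG and the 3p arms share AUCACUA:
miR-34a-5p: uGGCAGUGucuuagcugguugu
miR-34b-5p: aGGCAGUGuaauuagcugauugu
miR-449a-5p: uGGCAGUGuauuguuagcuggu
miR-34b-3p: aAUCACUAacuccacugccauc
miR-34c-3p: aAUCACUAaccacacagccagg

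The miR-200 cluster on chr4:156053916-156055742 (minus strand) holds members with the seeds AAUACUG and AACACUG, which differ from each other within the seed. Counted from the 5′ end, miR-429-3p differs from miR-200b-3p outside the seed by C9U, A19C, U20C and A22U:
miR-200b-3p: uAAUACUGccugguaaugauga
miR-429-3p: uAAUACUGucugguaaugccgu
miR-200a-3p: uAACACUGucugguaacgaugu

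These miRNAs were also among those far higher in eWAT, and miR-92a-3p is set beside miR-92b-3p because the pair shares a seed and went opposite ways. From miR-92a-3p to miR-92b-3p the substitutions are U10C and G21C, and miR-92b-3p is 22 bases long against 21:
miR-135a-5p: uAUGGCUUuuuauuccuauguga
miR-92b-3p: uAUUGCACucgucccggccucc
miR-92a-3p: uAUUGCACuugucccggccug
miR-335-5p: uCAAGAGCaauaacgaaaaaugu

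The miRNAs below were lower in eWAT. The miR-196 pair shares the seed AGGUAGU and differs by the single substitution A12C from miR-196a-5p to miR-196b-5p:
miR-196a-5p: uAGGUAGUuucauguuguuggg
miR-196b-5p: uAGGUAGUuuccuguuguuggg
miR-338-3p: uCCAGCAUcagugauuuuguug
miR-9-5p: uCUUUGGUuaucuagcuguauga
miR-193b-3p: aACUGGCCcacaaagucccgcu
miR-182-5p: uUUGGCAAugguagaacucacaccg
miR-129-2-3p: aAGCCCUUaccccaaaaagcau
miR-146a-5p: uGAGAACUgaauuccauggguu

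Values are normalized counts, that is, reads divided by a size factor per library. Fold changes are differences of log2(normalized count + 1), eWAT minus cWAT, with their standard error (SE), and errors on depot means are SDs with n = 3. The recovered reads numbered 4122136, 5694349 and 4200661 in eWAT 1 to 3 and 2452236, 1449708 and 6816555 in cWAT 1 to 3, a 4.70-fold span. Correlations of log values over miRNAs, which are not independent replicates, ran from 0.991 to 0.992 among the eWAT libraries and from 0.966 to 0.985 among the cWAT libraries.

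Between the depots, 87 of the 436 tested miRNAs differed (20.0%; limma with Benjamini-Hochberg adjustment, adjusted p under 0.05). Of these, 41 were higher in eWAT (9.40%) and 46 lower (10.6%), and the median log2 fold change over all tested miRNAs was -0.02. The counts given for lists of miRNAs below stand against these shares. The differences of at least 4-fold numbered 15 higher and 12 lower, and 22 higher and 21 lower were under 2-fold. The 3 libraries of each depot did not overlap for 182 tested miRNAs (41.7%), among them 85 of the 87. The exceptions were miR-384-5p and miR-708-5p.

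**Figure D1:**
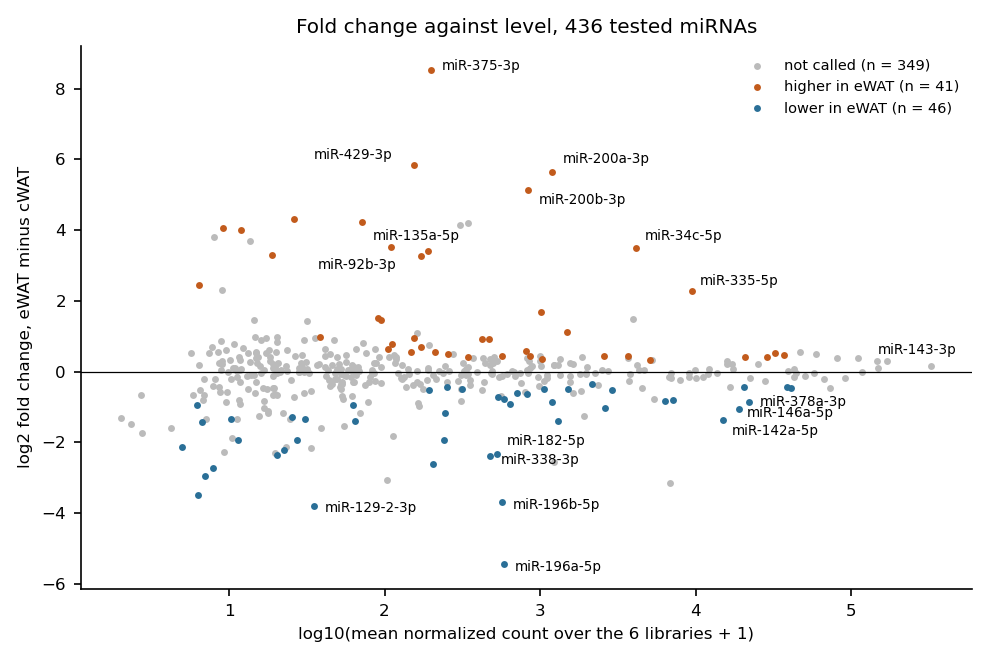
Log2 fold change (eWAT minus cWAT, vertical) against log10 of the mean normalized count over the 6 libraries plus 1 (horizontal), 1 point per tested miRNA. The 41 miRNAs higher in eWAT (orange) include miR-375-3p at the top and miR-335-5p at a far higher level, and the 46 lower in eWAT (blue) include miR-196a-5p at -5.44 and, among the abundant miRNAs, miR-142a-5p at -1.37.

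None of the 10 most abundant miRNAs was called, which does not show that their differences were small. The log2 fold change of 0.39 for miR-30a-5p and for miR-125a-5p was larger than the 0.33 of let-7e-5p, which was called. The 10 took 55.3% of the normalized counts in eWAT and 52.7% in cWAT. The absence of calls did not extend to all abundant miRNAs. Of the 44 above 10000 normalized counts in either depot 11 were called, against 87 of the 436 tested. The level of miR-143-3p, the most abundant miRNA and a product of smooth muscle and stromal cells, was 389654, 343714 and 309403 in eWAT 1 to 3 and 313796, 285452 and 333440.1 in cWAT 1 to 3. Its libraries overlapped (0.16 ± 0.12; limma, adjusted p = 0.412). Some others of the 10 had libraries that did not overlap, although they were not called. The eWAT libraries of miR-30a-5p (133339.8, 124270.3 and 119585) all lay above those of cWAT (99602, 88223 and 100328; 0.39 ± 0.14; limma, adjusted p = 0.0534). So did those of miR-125a-5p, at 113236, 82034 and 82772 in eWAT and 73716, 67970 and 68338 in cWAT (0.39 ± 0.19; limma, adjusted p = 0.157). miR-99a-5p varied widely within both depots, at 35546, 49404 and 99567 in eWAT 1 to 3 and 116136, 95989 and 40358 in cWAT 1 to 3, so that its difference of -0.45 ± 0.63 was within that spread (limma, adjusted p = 0.679).

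Counted in normalized counts and among the called miRNAs, the largest gains of eWAT were miR-335-5p (12459 more than in cWAT), miR-29a-3p (11843) and miR-126a-5p (11837). The difference of eWAT from cWAT was -14903 for miR-142a-5p, -13361 for let-7g-5p, -13299 for miR-146a-5p and -12979 for miR-378a-3p.

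**Figure D2:**
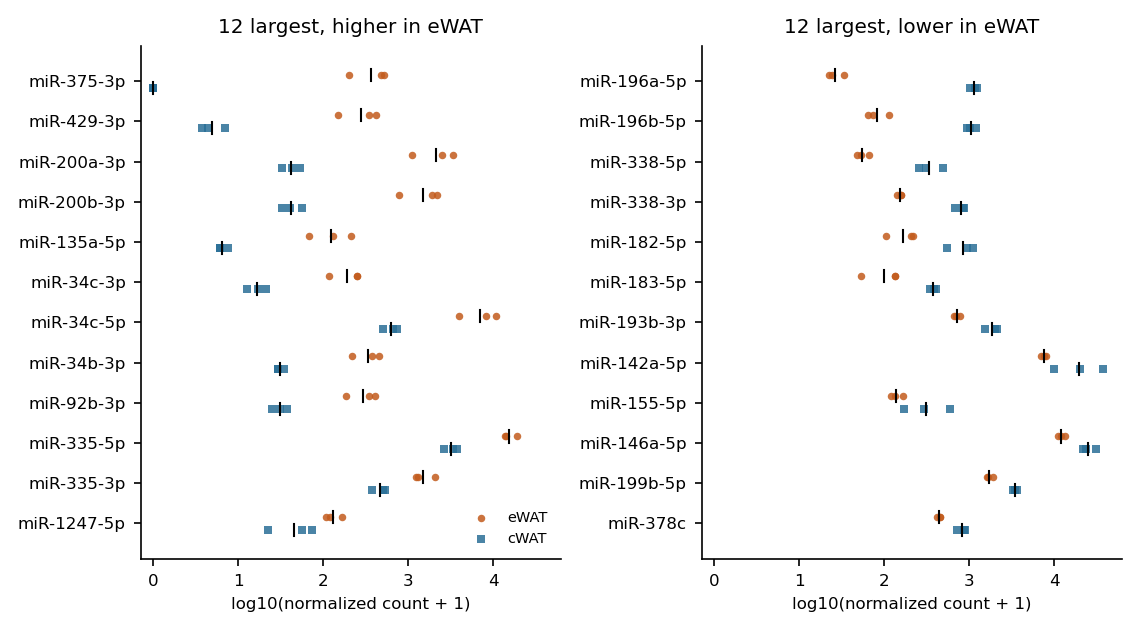
Level of 24 miRNAs in each library as log10(normalized count + 1), with eWAT libraries as orange circles, cWAT libraries as blue squares and a bar at the mean of each group. Left, the 12 largest differences higher in eWAT; right, the 12 largest lower in eWAT, chosen among called miRNAs without overlap and with a mean of at least 100 in the higher depot. eWAT 2 is the lowest eWAT point for 10 of the 12 on the left.

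A group far higher in eWAT was that of miR-34b, miR-34c and miR-449a, miRNAs of ciliated epithelium and male germ cells. All 5 arms measured of that list were higher in eWAT, with a median log2 fold change of 3.54 against -0.02 over all tested miRNAs. The other 20 names on the list, mostly of the testis, are not among the rows of the table and were not analysed here. In bulk tissue, fewer cells of a type and less RNA per cell cannot be told apart. miR-34c-5p, the most abundant of them, had 8183, 3957 and 10924 normalized counts in eWAT 1 to 3. In cWAT 1 to 3 it had 729.8, 661 and 512, which is 0.0261% of all normalized counts against 0.303% in eWAT. The groups lay far apart, although eWAT 2 was well below the other eWAT libraries, and the log2 fold change was 3.49 ± 0.39 (limma, adjusted p = 1.15e-05).

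The other arm, miR-34c-3p, was at 247, 115 and 247 in eWAT 1 to 3 and 20.2, 11.7 and 15.9 in cWAT 1 to 3, and its fold change of 3.54 ± 0.33 was nearly that of the 5p arm (limma, adjusted p = 3.32e-06). miR-34b-3p, from the neighbouring hairpin, was at 373, 219 and 448 in eWAT 1 to 3 and 33.4, 28.4 and 28.7 in cWAT 1 to 3 (3.42 ± 0.75; limma, adjusted p = 0.00445). These hairpins lie within chr9:51103044-51103632 on the minus strand, inside the spans of Hoatz, a gene of cilia assembly, and Btg4, a gene of the oocyte. miR-34b-5p was at 46.5, 25.6 and 74.7 in eWAT and 2.02, 0 and 3.11 in cWAT (4.30 ± 0.89; limma, adjusted p = 0.00303). miR-449a-5p, from a hairpin within the cell-cycle gene Cdc20b on chromosome 13, was named after its values were seen. It was at 26.5, 11.97 and 26.1 in eWAT, while cWAT had 0, 0 and 1.38 (3.99 ± 0.84; limma, adjusted p = 0.00333). With so few reads in cWAT, the size of the difference depended on the setting. It ran from 2.23 to 4.96 for miR-449a-5p and from 2.93 to 4.77 for miR-34b-5p, while both calls held.

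miR-34a-5p has the same seed but its own locus on chromosome 4, is induced by p53, and is known to oppose browning of white fat. It was at 442, 562 and 649 in eWAT 1 to 3 and 237, 319.5 and 319 in cWAT 1 to 3, a smaller difference of 0.91 ± 0.20 (limma, adjusted p = 0.0048). Here eWAT 2 was not the lowest eWAT library. In the other depots miR-34c-5p was at 727 ± 236 in iWAT, 405 ± 121 in mWAT, 835 ± 352 in aWAT and 162 ± 33.8 in iBAT, so eWAT had the highest mean of the 6 depots.

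Epithelial miRNAs were the other large group, and they split. Of 16 tested, 4 were higher in eWAT, 3 lower and 9 not called, and their median log2 fold change was 2.13 (1.37 with miRNAs at 0 in cWAT placed at their bound). miR-375-3p, an miRNA of endocrine and glandular epithelium, was at 478, 199 and 517 in eWAT and at 0 in all 3 cWAT libraries. Against a floor of 3 reads per cWAT library, a mean of 3.03 normalized counts, it was at least 131-fold higher (limma, adjusted p = 0.00138). Such floors cover counting error only.

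The miR-200 family keeps epithelial cells in their state by repressing Zeb1 and Zeb2. Its member miR-200a-3p was at 2536, 1096 and 3385 in eWAT 1 to 3 and 31.4, 51.9 and 42.2 in cWAT 1 to 3 (5.65 ± 1.31; limma, adjusted p = 0.00654). miR-429-3p was at 349, 148 and 412 in eWAT 1 to 3 and 6.07, 3.35 and 2.76 in cWAT 1 to 3 (5.84 ± 1.37; limma, adjusted p = 0.00743). For both, the lowest eWAT library was many times above the highest cWAT library. miR-200b-3p was at 1913, 771 and 2214 in eWAT 1 to 3 and 31.4, 55.2 and 39.4 in cWAT 1 to 3 (5.15 ± 1.54; limma, adjusted p = 0.0277), but its call was lost when any of 5 of the 6 libraries was left out (all but eWAT 2), at adjusted p-values up to 0.086. miR-141-3p and miR-200c-3p, of the other miR-200 cluster and named after their values were seen, also had separate groups. The first was at 648, 285 and 997 in eWAT against 11.1, 70.3 and 32.8 in cWAT, and the second at 607, 293 and 847 against 19.2, 50.2 and 25.6. Neither was called with all depots in the fit (4.21 ± 1.45, limma, adjusted p = 0.0512, and 4.14 ± 1.41, limma, adjusted p = 0.0511).

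These SEs are among the largest of the called miRNAs, as the fit pools the spread of all 6 depots. With only the 6 eWAT and cWAT libraries in the fit, 8 epithelial miRNAs were higher and 3 lower. The level of miR-200a-3p was 2451 ± 2286 in aWAT, 935 ± 1263 in mWAT, 533 ± 856 in iWAT and 7.61 ± 2.19 in iBAT. The aWAT mean was thus as high as that of eWAT, and the SD in aWAT and iWAT was close to the mean or above it.

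Other epithelial miRNAs went the other way or stayed low in both depots. The miR-183 cluster, on chr6:30165962-30169732 (minus strand), belongs to sensory epithelium, and miR-182-5p is also known from brown fat. miR-182-5p was lower in eWAT, at 215, 104 and 208 in eWAT 1 to 3 and 555, 954 and 1114 in cWAT 1 to 3 (-2.32 ± 0.68; limma, adjusted p = 0.0257). miR-183-5p followed, at 134, 53.0 and 133 in eWAT 1 to 3 and 342, 405 and 384 in cWAT 1 to 3 (-1.93 ± 0.58; limma, adjusted p = 0.028), and both calls were lost in several single-library omissions. miR-96-5p, from between them and named after its values were seen, was at 107, 68.4 and 174 in eWAT and 191, 258 and 191 in cWAT and was not called (limma, adjusted p = 0.328). The keratinocyte miRNA miR-205-5p, also named after its values were seen, stood at 11.6, 3.85 and 8.30 in eWAT and 7.08, 3.35 and 4.49 in cWAT (limma, adjusted p = 0.86). This marker was thus low in both depots.

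In the groups high in eWAT, eWAT 2 stood apart from eWAT 1 and 3. It was the lowest eWAT library in 143 of the 436 tested miRNAs, in 13 of the 15 called miRNAs at least 4-fold higher, in 13 of the 16 epithelial miRNAs and in 5 of the 5 in the miR-34 and miR-449 list. Its median level was 97.1% of the mean of eWAT 1 and 3 over all tested miRNAs, but 45.5% over the 15, 40.1% over the epithelial list and 45.5% over the miR-34 and miR-449 list. Without eWAT 2, 5 of 5 in the latter list and 4 epithelial miRNAs were still called higher. Summed over the list, the miR-34 and miR-449 levels were 8876, 4328 and 11720.1 in eWAT against 785, 701 and 561 in cWAT. What moved these lists together within eWAT was not tested.

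miR-135a-5p followed the same library pattern, at 129.8, 66.7 and 211 in eWAT 1 to 3 and 5.06, 5.02 and 6.57 in cWAT 1 to 3 (4.24 ± 0.62; limma, adjusted p = 0.000166). The highest mean among the other depots was 6.87 ± 3.46, in mWAT. miR-92b-3p, a relative of the miR-17-92 cluster with its own hairpin on chromosome 3, was at 409, 182 and 349 in eWAT 1 to 3 and 24.3, 30.1 and 36.6 in cWAT 1 to 3 (3.26 ± 0.38; limma, adjusted p = 1.66e-05). Its sister miR-92a-3p, with the same seed and a part in proliferating and blood-forming cells, was lower in eWAT, at 5982, 5147 and 4534 in eWAT 1 to 3 and 7448, 12102 and 7962 in cWAT 1 to 3 (-0.79 ± 0.16; limma, adjusted p = 0.00299). Over the 5 tested miRNAs with that seed, 1 was higher, 1 lower and the other 3 not called.

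miR-335 lies within Mest, an imprinted gene that rises in expanding fat. Among the called miRNAs, its 5p arm gave the largest difference in normalized counts toward eWAT. miR-335-5p was at 14006, 14166 and 18937 in eWAT 1 to 3 and 3352, 2612 and 3768 in cWAT 1 to 3, which are 0.623% and 0.134% of all normalized counts. The groups did not overlap, and here eWAT 2 was within the range of the other eWAT libraries (2.28 ± 0.24; limma, adjusted p = 6.98e-06). miR-335-3p was at 1314, 1225 and 2083 in eWAT 1 to 3 and 538, 378 and 500.4 in cWAT 1 to 3 (1.68 ± 0.27; limma, adjusted p = 0.000439). The means of miR-335-5p in the other depots, 3220.4 ± 792 in iWAT, 3439 ± 201 in mWAT, 2234 ± 878 in aWAT and 2716 ± 304 in iBAT, were all far below that of eWAT.

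The remaining adipocyte miRNAs did not follow miR-335. Of the 10 tested miRNAs abundant in adipocytes, the 2 miR-335 arms were higher and 8 were not called. Among them miR-148a-3p was at 62849, 53754 and 53877 in eWAT 1 to 3 and 63040.0, 55567 and 57569 in cWAT 1 to 3 (limma, adjusted p = 0.813), and miR-103-3p, which acts on insulin signalling, at 5969, 6588 and 8104 in eWAT 1 to 3 and 8177, 6925 and 6091 in cWAT 1 to 3 (limma, adjusted p = 0.905). Both overlapped between depots.

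**Figure D3:**
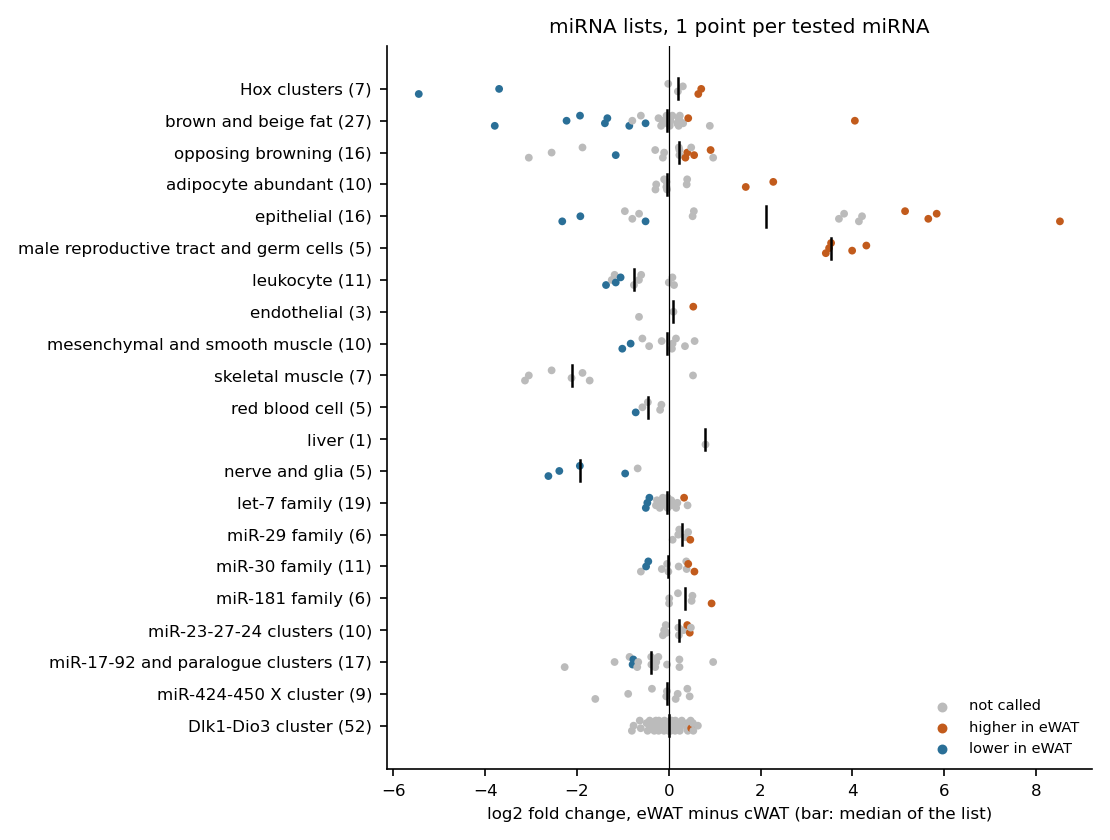
Log2 fold change, eWAT minus cWAT, of each tested miRNA in 21 lists, with the number of tested members in brackets and a bar at the list's median. The 5 arms of the male reproductive tract list all lie above 3, the nerve and glia list lies below 0, and the 52 miRNAs of the Dlk1-Dio3 cluster lie around 0.

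Further miRNAs higher in eWAT were moderate in size. miR-1247-5p was at 108, 119 and 165 in eWAT 1 to 3 and 21.3, 55.2 and 71.9 in cWAT 1 to 3 (1.52 ± 0.38; limma, adjusted p = 0.0106), and its call was lost without eWAT 3 (adjusted p = 0.0535 with limma). The following were named after their values were seen. miR-130a-3p, which represses Pparg, the master regulator of adipocytes, was at 1976, 1972 and 2150.2 in eWAT 1 to 3 and 976, 843 and 971 in cWAT 1 to 3 (1.13 ± 0.15; limma, adjusted p = 5.54e-05). Its seed partner miR-301a-3p was higher too, at 44.6, 47.4 and 55.7 against 23.3, 16.7 and 37.0 (0.98 ± 0.31; limma, adjusted p = 0.0358), but that call was lost in 5 of the 6 single-library omissions (all but cWAT 3) and in the fit of the 6 libraries alone. miR-130b-3p was not called. miR-190a-5p, from within Tln2, was at 144, 129 and 133 in eWAT 1 to 3 and 39.5, 36.8 and 79.1 in cWAT 1 to 3 (1.46 ± 0.31; limma, adjusted p = 0.00414). miR-218-5p, from hairpins of the Slit guidance genes, was at 174, 207 and 225 in eWAT 1 to 3 and 118, 87.0 and 105 in cWAT 1 to 3 (0.96 ± 0.18; limma, adjusted p = 0.00135).

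Of the miR-181 family, which acts in lymphocyte and vessel biology, 1 of 6 was called. That was miR-181c-5p, at 632, 503 and 716 in eWAT 1 to 3 and 278, 348 and 336 in cWAT 1 to 3 (0.93 ± 0.14; limma, adjusted p = 0.000241). The far more abundant miR-181a-5p was at 4687, 4347 and 4401 in eWAT 1 to 3 and 3419, 4345 and 3975 in cWAT 1 to 3, which separated the groups but was not called (limma, adjusted p = 0.212). Of 6 miR-29 miRNAs, which repress collagen genes, only miR-29a-3p was called, at 41312, 40869 and 46133 in eWAT 1 to 3 and 29391, 34293 and 29100.0 in cWAT 1 to 3 (0.47 ± 0.13; limma, adjusted p = 0.0178), and its call was lost without eWAT 3, cWAT 1 or cWAT 3.

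miRNAs of the Hox clusters, whose genes set regional identity in the embryo, were split by family. Of 7 tested, 2 were lower in eWAT, 2 higher and 3 without a call, and the median was 0.20. miR-196a-5p, encoded in the Hoxb and Hoxc clusters and known to promote browning by repressing Hoxc8, was at 23.3, 32.9 and 21.3 in eWAT and 1239.9, 1186 and 1029 in cWAT. This was the largest fold change toward cWAT, 43.5-fold when taken from the log2 difference, with each group tight (-5.44 ± 0.20; limma, adjusted p = 1.66e-11). miR-196b-5p, from the Hoxa cluster, was at 63.9, 113 and 72.3 in eWAT 1 to 3 and 1217, 1031 and 939 in cWAT 1 to 3 (-3.69 ± 0.41; limma, adjusted p = 1.15e-05). Both calls held in each of the 16 settings and omissions tried.

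Across depots, miR-196a-5p was at 1159.5 ± 72.3 in iWAT and 615 ± 46.8 in mWAT, 6.62 ± 2.28 in aWAT and 0 in all 3 iBAT libraries. miR-196b-5p was at 1345 ± 164 in iWAT, 2156 ± 153 in mWAT, 101 ± 65.4 in aWAT and 4.16 ± 2.79 in iBAT. iWAT and cWAT did not differ beyond their spread for either, mWAT was also high, and eWAT and aWAT were low.

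Of the miR-10 arms, from the Hoxb and Hoxd clusters, the abundant 5p arms were not called and the minor 3p arms were. miR-10b-5p, the dominant arm, was at 231151, 185679 and 153311 in eWAT 1 to 3 and 142057, 136212 and 179437 in cWAT 1 to 3 (0.31 ± 0.20; limma, adjusted p = 0.289), with overlap between depots. The minor arms, named after their values were seen, were higher in eWAT. miR-10a-3p was at 123, 121 and 134 in eWAT and 99.2, 55.2 and 94.7 in cWAT (0.64 ± 0.19; limma, adjusted p = 0.027). miR-10b-3p was at 199, 231 and 202 in eWAT and 143, 102 and 144 in cWAT (0.71 ± 0.22; limma, adjusted p = 0.0309). Neither call held without any single eWAT library or without cWAT 2.

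miRNAs of nerve and glia were lower in eWAT in 4 of 5 cases, with a median of -1.94, against 10.6% lower over all tested miRNAs. The 4 are the arms of the miR-338 and miR-9 hairpins. miR-338, from within the neuronal kinase gene Aatk on chromosome 11, promotes oligodendrocyte maturation and is found in Schwann cells. miR-338-3p was at 140.1, 157 and 157 in eWAT 1 to 3 and 864, 678 and 851 in cWAT 1 to 3, tight in both groups (-2.38 ± 0.17; limma, adjusted p = 1.13e-07). miR-338-5p was at 46.5, 53.0 and 64.6 in eWAT 1 to 3 and 494, 311 and 253 in cWAT 1 to 3 (-2.62 ± 0.26; limma, adjusted p = 5.78e-06). miR-9-5p, a miRNA of the nervous system, was at 6.46, 11.5 and 13.6 in eWAT 1 to 3 and 46.6, 43.5 and 35.2 in cWAT 1 to 3 (-1.94 ± 0.23; limma, adjusted p = 1.66e-05). Its other arm miR-9-3p, named after its values were seen, had a log2 fold change of -0.95. That call was lost with DESeq2, in the fit of the 6 libraries alone and without eWAT 2. The glial miR-219a-5p was at 31.0, 39.7 and 48.0 against 59.7, 82.0 and 50.8 and was not called (limma, adjusted p = 0.0891). The summed level of the list was 229.9, 265 and 289 in eWAT and 1473, 1121 and 1201 in cWAT. miR-338-3p was lower in eWAT than in any other depot mean, with 567 ± 32.4 in mWAT the next lowest.

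miRNAs tied to brown and beige fat were lower in eWAT in 7 of 27 cases, higher in 2 and without a call in 18, and their median was -0.04. Over all tested miRNAs, 10.6% were lower and 9.40% higher. miR-193b-3p, which promotes brown adipocyte differentiation, was at 698, 778 and 669 in eWAT 1 to 3 and 1538, 2016 and 2118 in cWAT 1 to 3 (-1.39 ± 0.17; limma, adjusted p = 1.71e-05). The 5p arm miR-193b-5p was lower as well, a call lost without eWAT 1, while miR-365-3p from the same locus on chromosome 16 was at 5903, 6621 and 7095 in eWAT 1 to 3 and 8366, 7796 and 6005 in cWAT 1 to 3 and was not called (limma, adjusted p = 0.628). miR-378a-3p, which lies within Ppargc1b and expands brown fat when overexpressed, was at 16456, 15526 and 14907 in eWAT 1 to 3 and 23274, 30146 and 32407 in cWAT 1 to 3 (-0.86 ± 0.19; limma, adjusted p = 0.00445). Its relative miR-378c was at 452, 456 and 419.8 in eWAT 1 to 3 and 719, 875 and 905 in cWAT 1 to 3 (-0.90 ± 0.26; limma, adjusted p = 0.0233), a call lost in 5 of the 6 single-library omissions (all but cWAT 1).

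In iBAT, miR-378a-3p was at 225948 ± 22687, miR-193b-3p at 8846 ± 1695 and miR-182-5p at 12729 ± 2143, each far above both white depots. The white depot cWAT was thus nearer to eWAT than to iBAT in these levels. miR-203-3p, also known from brown fat and skin, was at 2524, 2501 and 2167 in eWAT 1 to 3 and 4034, 2911 and 3328 in cWAT 1 to 3 (-0.50 ± 0.12; limma, adjusted p = 0.01), a call lost without eWAT 3. miR-455-5p, induced by BMP7 in browning fat, was at 11.6, 17.9 and 20.8 in eWAT 1 to 3 and 39.5, 38.5 and 51.5 in cWAT 1 to 3 (-1.34 ± 0.28; limma, adjusted p = 0.00303), and its 3p arm was not called. Of the 2 members higher in eWAT, miR-30c-5p, which represses the corepressor Rip140, was at 34586, 30922 and 34069.8 in eWAT 1 to 3 and 26032, 24048 and 24064 in cWAT 1 to 3 (0.42 ± 0.14; limma, adjusted p = 0.0483), a call that was lost in each of the 6 single-library omissions.

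The miR-129 products went opposite ways and were named after their values were seen. miR-129-2-3p was at 1.94, 2.56 and 8.30 in eWAT 1 to 3 and 57.7, 83.6 and 50.8 in cWAT 1 to 3 (-3.79 ± 0.43; limma, adjusted p = 1.35e-05). miR-129-5p, which comes from hairpins on chromosomes 2 and 6 with 1 mature sequence, was at 7.75, 3.85 and 10.1 in eWAT 1 to 3 and 40.5, 38.5 and 28.3 in cWAT 1 to 3 (-2.23 ± 0.36; limma, adjusted p = 0.000439). miR-129-1-3p was at 15.5, 11.1 and 21.9 in eWAT and at 0 in all 3 cWAT libraries, at least 5.34-fold higher against the floor (limma, adjusted p = 0.000446), but DESeq2 did not call it (adjusted p = 0.208). Its mean was 0 in iWAT, aWAT and iBAT and 3.50 ± 3.81 in mWAT.

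Of 16 miRNAs known to oppose browning, 4 were higher in eWAT, 1 lower and 11 without a call (median 0.23). This balance moved with the method and the libraries. With DESeq2 or without cWAT 1, 4 were higher and 4 lower. With edgeR 4 were higher and 3 lower, and without cWAT 2 the counts were 2 higher and 0 lower. The members miR-133a-3p, miR-133a-5p and miR-133b-3p are also on the skeletal muscle list below. Each was far higher in cWAT 2 and 3 than in cWAT 1. Beside miR-34a-5p, the higher members were miR-27a-3p, which represses Pparg and Prdm16, and the minor arms of miR-125b. miR-27a-3p was at 24076, 22755 and 24569 in eWAT 1 to 3 and 19278, 17024 and 17716 in cWAT 1 to 3 (0.40 ± 0.10; limma, adjusted p = 0.00782). The more abundant miR-27b-3p was at 53708, 47307 and 43419 in eWAT 1 to 3 and 53782, 48909.9 and 54777 in cWAT 1 to 3 and overlapped (limma, adjusted p = 0.473), and miR-125b-5p was at 69544, 60845 and 76531 in eWAT 1 to 3 and 55017, 52386 and 40619.8 in cWAT 1 to 3, separate but not called (limma, adjusted p = 0.0991). Of the 10 miRNAs in the miR-23, miR-27 and miR-24 clusters, the called ones were miR-27a-3p and miR-24-2-5p, and the call of the latter was lost without cWAT 2.

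miRNAs of leukocytes were lower in eWAT in 3 of 11 cases (10.6% over all tested miRNAs) and higher in none, with a median of -0.76. miR-142a-5p, a miRNA of all blood cell lineages, was at 7704, 8024 and 7109.5 in eWAT 1 to 3 and 9894, 37214 and 20438 in cWAT 1 to 3 (-1.37 ± 0.35; limma, adjusted p = 0.0115). miR-155-5p, induced in activated leukocytes and also listed as opposing browning, was at 121, 135 and 164 in eWAT 1 to 3 and 172, 589 and 293 in cWAT 1 to 3 (-1.15 ± 0.33; limma, adjusted p = 0.0226). In both, cWAT 2 was well above cWAT 1 and 3, and both calls were lost without it. Both were also lost in the fit of the 6 libraries alone, with or without the replicate block. The call of miR-155-5p was lost without eWAT 1 or eWAT 2 as well. miR-146a-5p, a brake on NF-kB signalling, was more even, at 13482, 12032 and 11239 in eWAT 1 to 3 and 21944, 31014 and 23694 in cWAT 1 to 3 (-1.05 ± 0.15; limma, adjusted p = 0.000127).

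cWAT 2 was the highest cWAT library in 9 of the 11 leukocyte miRNAs, against 158 of 436 tested. The summed list level was 27877, 26955 and 25418 in eWAT and 37785, 90755 and 55835 in cWAT. Without cWAT 2, 1 leukocyte miRNA was called lower, and without cWAT 1, 6 were. The lymphocyte miRNA miR-150-5p was at 3765, 3537 and 3255 in eWAT 1 to 3 and 2500.0, 12728 and 6595 in cWAT 1 to 3 (limma, adjusted p = 0.219) and the granulocyte miRNA miR-223-3p at 866, 929.5 and 901 in eWAT 1 to 3 and 750.0, 867 and 876 in cWAT 1 to 3 (limma, adjusted p = 0.685), and both overlapped. The share of immune cells in the libraries was not tested.

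**Figure D4:**
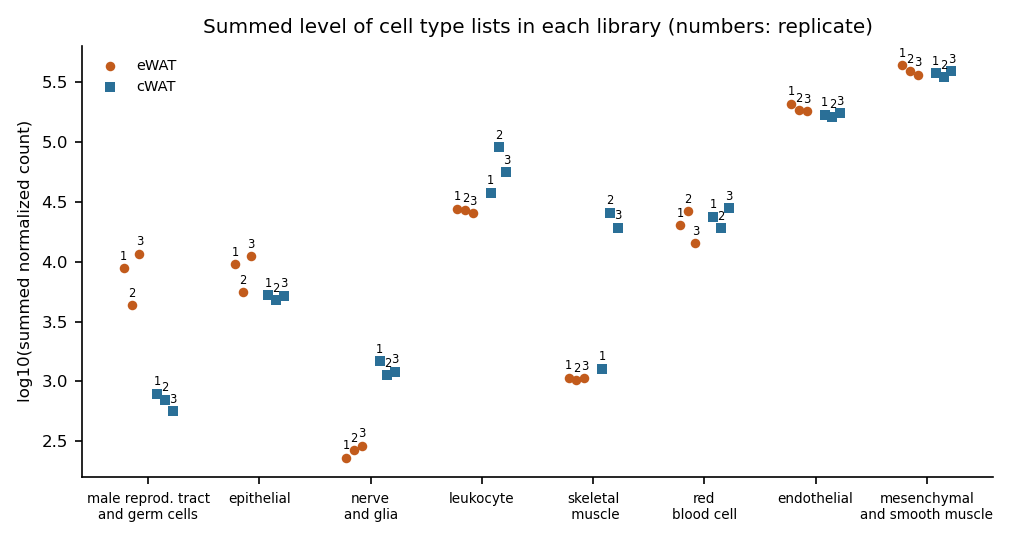
Summed normalized counts (log10) of the miRNAs in 8 cell type lists in each library, with eWAT as orange circles, cWAT as blue squares and the replicate number above each point. eWAT 2 lies below eWAT 1 and 3 in the male reproductive tract and epithelial sums, cWAT 2 is highest in the leukocyte sum, and cWAT 1 lies near the eWAT libraries in the skeletal muscle sum.

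Skeletal muscle miRNAs separated the cWAT libraries from each other. None of the 7 tested was called with limma, with a median of -2.12, and their sums were 1072, 1027 and 1067 in eWAT but 1273, 25772 and 19341 in cWAT. miR-1a-3p was at 860.3, 797 and 832 in eWAT 1 to 3 and 1107, 21657 and 16033 in cWAT 1 to 3 (-3.13 ± 1.17; limma, adjusted p = 0.0718). miR-133a-3p was at 181, 205 and 205 in eWAT against 141, 3687 and 2960.0 in cWAT (limma, adjusted p = 0.153). Thus cWAT 2 and 3 held muscle miRNAs at many times the level of cWAT 1, which was near eWAT. Without cWAT 1, 5 of the list were called lower in eWAT. With all libraries, 2 had an unadjusted p under 0.05 with limma, and DESeq2 called 6 and edgeR 4 lower.

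Other cell types of the pad moved less. Of 3 endothelial miRNAs, miR-126a-5p, from within the vessel gene Egfl7, was higher in eWAT at 37245, 37701 and 40189.6 in eWAT 1 to 3 and 25245, 25212 and 29167 in cWAT 1 to 3 (0.53 ± 0.18; limma, adjusted p = 0.0446), a call lost in each single-library omission. Its major arm miR-126a-3p was at 172745, 146923 and 141895 in eWAT 1 to 3 and 144799, 138524 and 145006 in cWAT 1 to 3 and overlapped (limma, adjusted p = 0.634). Of 10 mesenchymal and smooth muscle miRNAs, both miR-199b arms were lower in eWAT and 8 were not called. miR-199b-5p, from within Dnm1, was at 1602, 1689 and 1917 in eWAT 1 to 3 and 3318, 3711 and 3455 in cWAT 1 to 3 (-1.01 ± 0.15; limma, adjusted p = 0.000237). Of 5 red blood cell miRNAs, miR-144-5p alone was lower, at 373, 545 and 310.1 in eWAT 1 to 3 and 828, 565 and 602 in cWAT 1 to 3 (limma, adjusted p = 0.0412). That call was lost in 5 of the 6 single-library omissions (all but eWAT 2) and with edgeR. miR-451a, the main erythroid miRNA, was at 8909, 12722 and 7109 in eWAT 1 to 3 and 10186, 9141 and 12788 in cWAT 1 to 3 (limma, adjusted p = 0.628). The liver miRNA miR-122-5p stayed at or below 34.9 normalized counts in every library compared.

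The large families showed small shifts. Of 19 let-7 miRNAs, which restrain proliferation, 1 was higher, 3 lower and 15 without a call (median -0.04), against 9.40% higher and 10.6% lower over all tested miRNAs. let-7g-5p was at 32376, 34173 and 37107 in eWAT 1 to 3 and 49700.0, 52826 and 41211 in cWAT 1 to 3 (-0.47 ± 0.12; limma, adjusted p = 0.0103), a call lost without cWAT 2. let-7e-5p, with the same seed, was higher in eWAT, at 5346, 5416 and 6214 against 4930.1, 4530.5 and 4017 (0.33 ± 0.11; limma, adjusted p = 0.0392), though its call was lost in 5 of 6 single-library omissions. let-7c-5p, the most abundant of them, was at 59851, 60943 and 65654 in eWAT 1 to 3 and 76758, 73908 and 63281 in cWAT 1 to 3 (limma, adjusted p = 0.181).

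Of 11 miR-30 miRNAs, miR-30c-5p and miR-30d-3p were higher in eWAT and both miR-30e arms lower. These calls did not hold across the single-library omissions. They were lost in 6 of 6 for miR-30c-5p and miR-30d-3p, in 4 for miR-30e-5p and in 3 for miR-30e-3p, and 0 of the family were called without eWAT 3, without cWAT 2 or without cWAT 3. miR-30e-5p was at 33705, 32706 and 32383 in eWAT 1 to 3 and 41622, 45561 and 47499 in cWAT 1 to 3 (-0.45 ± 0.12; limma, adjusted p = 0.0193). miR-30c-5p and miR-30e-5p share the seed GUAAACA, and their hairpins share the locus chr4:120769546-120772681 (minus strand), miR-30c having another copy elsewhere. Thus a shared seed did not go with a shared direction here. miR-384-5p, with the same seed, and miR-384-3p come from an X-linked hairpin and were named after their values were seen. The 3p arm was at 0 in all 3 eWAT libraries and at 13.2, 6.69 and 11.7 in cWAT, at least 6.32-fold lower in eWAT against the floor (limma, adjusted p = 1.15e-05).

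Of 17 miRNAs in the miR-17-92 cluster and its paralogues, which are high in proliferating cells, miR-92a-3p and miR-20a-5p were lower and 15 without a call (median -0.38). This share is near the 10.6% lower over all tested miRNAs. miR-20a-5p was at 399.8, 438 and 456 in eWAT 1 to 3 and 722, 848 and 649 in cWAT 1 to 3 (-0.77 ± 0.13; limma, adjusted p = 0.000641). cWAT 2 was the highest cWAT library in 14 of the 17. None of the 9 miRNAs of the miR-424-450 cluster on the X chromosome was called with limma, where 3 had an unadjusted p under 0.05, and DESeq2 called 2 and edgeR 1 lower.

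The imprinted Dlk1-Dio3 cluster, expressed from the maternal chromosome, hardly differed. Of its 52 tested miRNAs 1 was called, miR-411-5p, with 0.49 ± 0.13 (limma, adjusted p = 0.0178), a call lost without eWAT 1, eWAT 3 or cWAT 2. The median was 0.00. The 33 mature miRNAs that could be placed on chr12:109709065-109743784 ranged from -0.77 to 0.63. miR-127-3p, the most abundant of the 52 and encoded outside that span, was at 8706, 7295 and 5951 in eWAT 1 to 3 and 8578, 7962 and 8892 in cWAT 1 to 3 (limma, adjusted p = 0.276).

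In 10 hairpins both arms were called, and in each the arms had the same direction. These were miR-140, miR-193b, miR-199b, miR-30e, miR-335, miR-338, miR-34b, miR-34c, miR-384 and miR-9. A further 116 hairpins had both arms tested with at most 1 called.

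Whether differences from eWAT were of another size for cWAT than for iWAT was asked by comparing cWAT with iWAT, since eWAT drops out of that difference. Of the 436 tested miRNAs, 0 differed between cWAT and iWAT (0%) with limma at an adjusted p under 0.05, and 54 had an unadjusted p under 0.05. edgeR called 1 and DESeq2 12 on the recovered reads. The authors' deposited table called 13 of the 239 miRNAs to which it gives an adjusted p for this comparison, 8 of them positive. Among the miRNAs higher in eWAT than in cWAT, the authors' deposited table called miR-27a-3p (-0.47), miR-125b-2-3p (-0.43) and miR-497a-5p (-0.61). Of those lower in eWAT it called miR-30e-3p (0.50). The levels of the first 3 in cWAT were thus below those in iWAT in that table, and the same differences in the fit of all depots were -0.47 ± 0.10, -0.43 ± 0.09 and -0.60 ± 0.15, which missed the threshold with limma (adjusted p = 0.0546, 0.0546 and 0.0857).

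For the largest differences between eWAT and cWAT, the cWAT minus iWAT difference was -0.01 ± 0.20 for miR-196a-5p, -0.16 ± 0.39 for miR-34c-5p, 0.02 ± 0.24 for miR-335-5p and -0.31 ± 0.17 for miR-338-3p. Each was small beside the difference of the same miRNA from eWAT. For miR-200a-3p it was -1.61 ± 1.31, with an SE too large to tell cWAT from iWAT. The design gives cWAT and iWAT 3 libraries each, and a p that misses the threshold does not show that they were alike.

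**Figure D5:**
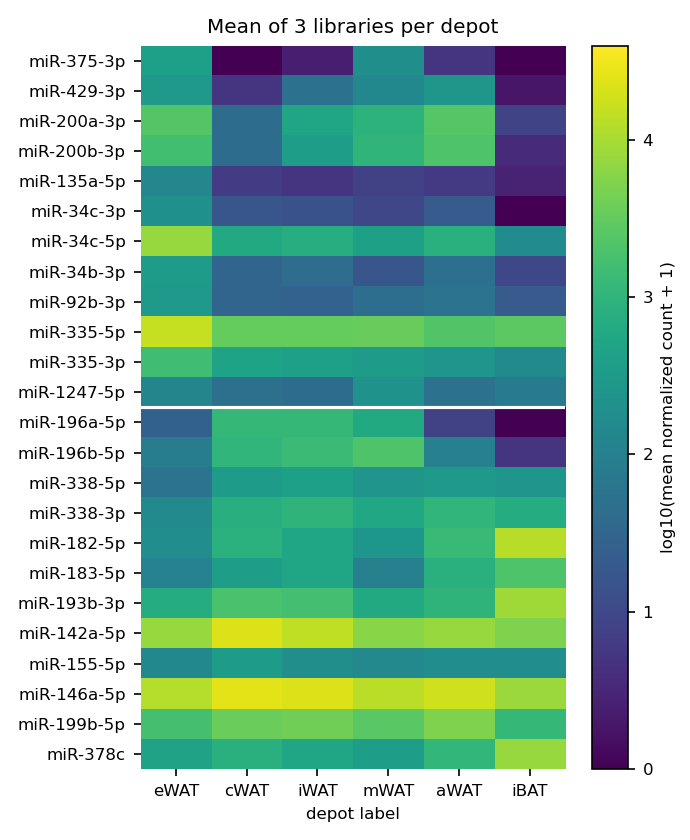
Mean normalized count of 3 libraries per depot, shown as log10(mean + 1) in colour, for the 12 largest differences higher in eWAT (above the white line) and the 12 largest lower in eWAT (below). miR-135a-5p, the miR-34 arms, miR-92b-3p and miR-335 are brightest in the eWAT column, miR-200 miRNAs are as bright in aWAT, and miR-182-5p, miR-193b-3p and miR-378c are brightest in iBAT.

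Set among all depots, eWAT had the highest mean of the 6 for 21 of the 41 miRNAs higher in eWAT than in cWAT, and the lowest for 22 of the 46 lower in eWAT. Over all tested miRNAs eWAT was highest for 64 and lowest for 61 of 436. iBAT had the highest mean for 18 of the 46 and cWAT for 8, while over all 436 tested miRNAs iBAT was highest for 107 and cWAT for 52. These counts describe levels only, since the 87 were chosen for the position of eWAT relative to cWAT.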

How the data were processed

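The authors' deposited miRNA table holds a signal value per miRNA and library, normalized counts made by dividing counts by size factors, per the file headers and the values. GRCm38, mm10, DESeq, DESeq2 and kallisto 0.45.0 appear in the submitters' processing notes without roles, and the tools that aligned and counted the small RNA were not given in the sources used here. Whole reads were recovered (100% of values within 0.02 reads). The smallest value was 2 reads in 12 libraries and 1 read in the rest, so a 0 may stand for a single read. The log2 fold changes and adjusted p-values printed from the authors' deposited table are those of cWAT against iWAT, and their test is not stated in the table.

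Values were tested with limma 3.58.1 (R 4.3.3, eBayes, trend on) after log2(normalized count + 1), with all 18 libraries of 6 depots in 1 fit (12 residual degrees of freedom). edgeR 4.0.16's filterByExpr kept 436 of 485 miRNAs, which hold 99.993% of the normalized counts of the 6 libraries. Adjustment was by Benjamini-Hochberg over all tested miRNAs. The analysis was tested on simulated data. Alternatives were other pseudocounts (0.5 and 5), filters, scalings, edgeR, DESeq2 1.42.0, a fit of the 6 libraries, a replicate block and single-library omissions.

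miRNAs were named by a rule: the 12 largest differences in each direction among called miRNAs without overlap and with a mean of at least 100 in the higher depot, the 10 most abundant, and up to 4 of the most abundant per list. Other named miRNAs, among them miR-34a-5p, miR-365-3p, miR-455-5p, miR-223-3p, let-7e-5p, miR-411-5p and the second arms of miR-30d, miR-30e, miR-193b and miR-24-2, were chosen after their values were seen. The members and the 21 lists were chosen with earlier results of these data known. No library was left out of the main results, and the other assays of the study were not used here.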

Additional observations from a re-analysis of the deposited data

How the results depend on the processing

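No alternative reversed the direction of a called miRNA, and 38 of the 87 kept their call in each of those that could test them. The count for eWAT against cWAT was 57 with the replicate block on the 6 libraries and ranged from 55 (without eWAT 3) to 92 over the single-library omissions, against 99 for the 6 libraries without the block. In deviations from the depot means, 0 of 3 eWAT libraries correlated best with the cWAT library of the same number (-0.03, -0.07 and -0.24). With means of 3 libraries, this cannot tell whether libraries of the same number came from the same animal. The count was 58 without cWAT 2. edgeR gave 111 and DESeq2 121, and the other settings gave 82 to 95. For cWAT against iWAT the count was 0 with limma and 2 with a minimum mean of 10, 2 with TMM scaling, 1 with edgeR and 12 with DESeq2. Omissions gave 0 to 4 there (4 without cWAT 1). The cause of these shifts was not tested. Depth limits the calls near the floor of 3 reads per library.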

Other observations

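Several called miRNAs belong to no list above and were named after their values were seen. Those lower in eWAT include some products of the X-linked cluster within Clcn5, on chr X. The cluster did not move as a whole. Of the 8 tested miRNAs placed on chrX:7237695-7248440 (minus strand), 2 were lower and 0 higher. Their log2 fold changes ran from -0.86 to 0.62 with a median of -0.18, and miR-532-5p was not among those 8. miR-532-5p was at 644, 639 and 636 in eWAT 1 to 3 and 929, 1103 and 961 in cWAT 1 to 3 (-0.64 ± 0.10; limma, adjusted p = 0.000225), miR-501-3p at 736, 819 and 969 in eWAT 1 to 3 and 1590.1, 1767 and 1247 in cWAT 1 to 3 (-0.86 ± 0.28; limma, adjusted p = 0.0392) and miR-362-3p at 240.3, 247 and 286 in eWAT 1 to 3 and 324, 430.0 and 347 in cWAT 1 to 3 (-0.50 ± 0.16; limma, adjusted p = 0.0377). The call of miR-532-5p held in every setting tried, while the others were lost in 5 and 4 of the 6 single-library omissions. Both arms of miR-140, a cartilage miRNA within Wwp2, were lower too, miR-140-3p at 1853, 2008 and 1868 against 2164, 2596 and 2505 (-0.34 ± 0.10; limma, adjusted p = 0.0277). The call of miR-140-3p was lost in 4 of the 6 single-library omissions, and that of miR-140-5p in 5 and with edgeR. miR-137-3p, a brain miRNA, was near the floor in eWAT (0, 2.14 and 0) and at 8.10, 18.4 and 7.26 in cWAT (-2.95 ± 0.59; limma, adjusted p = 0.00233).

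Among those higher in eWAT, miR-298-5p comes from beside the imprinted Gnas locus (chr2:174267093-174267575, minus strand, with miR-296) and was at 51.7, 25.6 and 20.8 in eWAT 1 to 3 and 5.06, 0 and 4.15 in cWAT 1 to 3 (3.31 ± 0.65; limma, adjusted p = 0.0021). Here eWAT 1, not eWAT 2, stood apart, and the call held in every setting tried. miR-216a-5p, a miRNA of the exocrine pancreas, was at 10.3, 8.12 and 10.1 in eWAT and 3.04, 0 and 0.691 in cWAT (2.46 ± 0.78; limma, adjusted p = 0.0366). Its call was lost in 5 of the 6 single-library omissions, and its highest depot mean was 17.9 ± 1.43, in mWAT. miR-497a-5p, which restrains the cell cycle, was at 887, 921 and 1104 in eWAT 1 to 3 and 632, 701 and 608 in cWAT 1 to 3 (0.58 ± 0.15; limma, adjusted p = 0.0115), a call lost without eWAT 3. miR-204-5p was at 1020.4, 816 and 1138 in eWAT 1 to 3 and 756, 636 and 797 in cWAT 1 to 3 (0.44 ± 0.13; limma, adjusted p = 0.0237), a call lost without eWAT 1, eWAT 3 or cWAT 2. Its seed partner miR-211-5p was at 4.52, 1.28 and 4.15 against 3.04, 75.3 and 23.5 and was not called (limma, adjusted p = 0.113).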
